A study of Homo sapiens with 6 samples.

Results

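The genes described here encode the proteins that carry out and steer pre-mRNA splicing: SR and TRA2 proteins, hnRNP and PTB proteins, snRNP proteins, the SF3 and U2AF proteins of branch point and 3′ splice site recognition, and the PRPF proteins. They were taken by symbol (SRSF followed by a number, HNRNP, SNRP, SF3A and SF3B, U2AF and PRPF followed by a number, with TRA2A, TRA2B, PTBP1 and PTBP2), and 4 pseudogenes were left out. Of 20046 genes with a probe of their own on the array, 75 met this rule. The cells were U2OS, an established human osteosarcoma line, and 3 arrays came from cells given a mimic of miR-542-3p while 3 came from cells given a negative control mimic, all with RNA taken at 48 h. A mimic is a synthetic duplex that raises the level of 1 microRNA; the dose and the level reached are not given in the labels. The labels number the arrays in each group but do not tie them to separate cultures, so a p-value here measures the spread between these arrays, which may be technical. All values are log2 of background-corrected, quantile-normalized bead-array signal, a change is mimic minus control, and a gene is said to rise or fall at a limma adjusted p under 0.05, adjusted over all 14775 rows of the table.

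Splicing removes introns in 2 chemical steps on the spliceosome, which is built from small nuclear ribonucleoproteins (snRNPs) and many further proteins. SR proteins mostly bind exonic enhancers and help to define exons, whereas hnRNP proteins coat the nascent transcript and often repress nearby splice sites, so the balance of the 2 classes sets many alternative splicing choices. Many of these genes also limit their own output, or that of a close relative, through exons whose inclusion or skipping sends the transcript to nonsense-mediated decay.

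Between 17848 and 18652 of 47323 probes were detected per array (detection p under 0.05), and arrays of the same group correlated more closely (r 0.983 to 0.990 over rows) than arrays of different groups (0.956 to 0.968). Of 12 osteosarcoma and mesenchymal markers 9 were detected on all 6 arrays, among them VIM and RUNX2, while COL1A2 and TWIST1 were detected on 1 array each. Of the epithelial markers KRT8, KRT18 and EPCAM were detected on all arrays and CDH1, CLDN4 and CLDN7 on none. Of 7 leukocyte markers with a probe, CD68 was detected on all arrays and CD3E, LYZ and CD74 on none; of 6 endothelial markers none was detected on all arrays. Several markers also moved with the mimic: CDH2 (1.13), RUNX2 (0.97) and S100A4 (0.97) rose, SPP1 (-1.87) and SPARC (-0.48) fell, so that 5 of 10 measured osteosarcoma and mesenchymal markers were called, against 26.4% of all genes tested. EPCAM fell by 1.32, and the endothelial VWF, detected on the 3 control arrays and no mimic array, fell by 1.38. Of the p53 response genes SESN1 (2.53), BAX (1.14), CDKN1A (1.03) and ZMAT3 (0.62) rose, with 12.7% of all genes called higher; MDM2 (1.44) and FAS (1.67) were called too, but FAS was detected on no control array and MDM2 on 2 of them. The part of these shifts in the changes below was not tested. In such bulk RNA, fewer cells of a kind and less RNA per cell cannot be told apart.

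Of the 75 genes, 68 passed the detection filter (detection on at least 3 of 6 arrays), 66 of them on all 6 arrays. HNRNPCL2, PRPF39, SF3A1, SNRPE and SRSF12 were detected on no array, HNRNPCL1 on 1 and SRSF11 on 2, and these 7 were not tested. With the mimic, 8 of the 68 genes fell and 5 rose, which is 19.1% called, against 26.4% of the 10734 genes tested (13.7% lower and 12.7% higher). With no detection filter the order of the shares turned, to 14.7% of 75 members against 10.8% of 20046 genes. These shares have unlike bases, since the filter had kept 68 of the 75 members but 10734 of the 20046 genes. The count of members called went from 13 to 11. Without mimic replicate 1 the falls numbered 4 and 17.5% of all genes were called, and without control replicate 3 they numbered 5 and 18.4% of all genes were called. At an unadjusted p under 0.05, 16 members were lower (23.5%) and 6 higher (8.82%), against 19.9% and 20.1% of all genes. The median change was -0.03 for the 68 genes and 0.02 for all genes; it was 0.02 without control replicate 2 and 0 without mimic replicate 3. At least 2-fold changes were found for 2 members, PTBP2 and SNRPD1, against 7.64% of all genes. Mimic and control arrays did not overlap at all for 27 members (39.7%), against 45% of all genes. Changes of the 68 genes had an SD of 0.45 over genes and ran from -1.14 to 1.87.

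**Figure D1:**
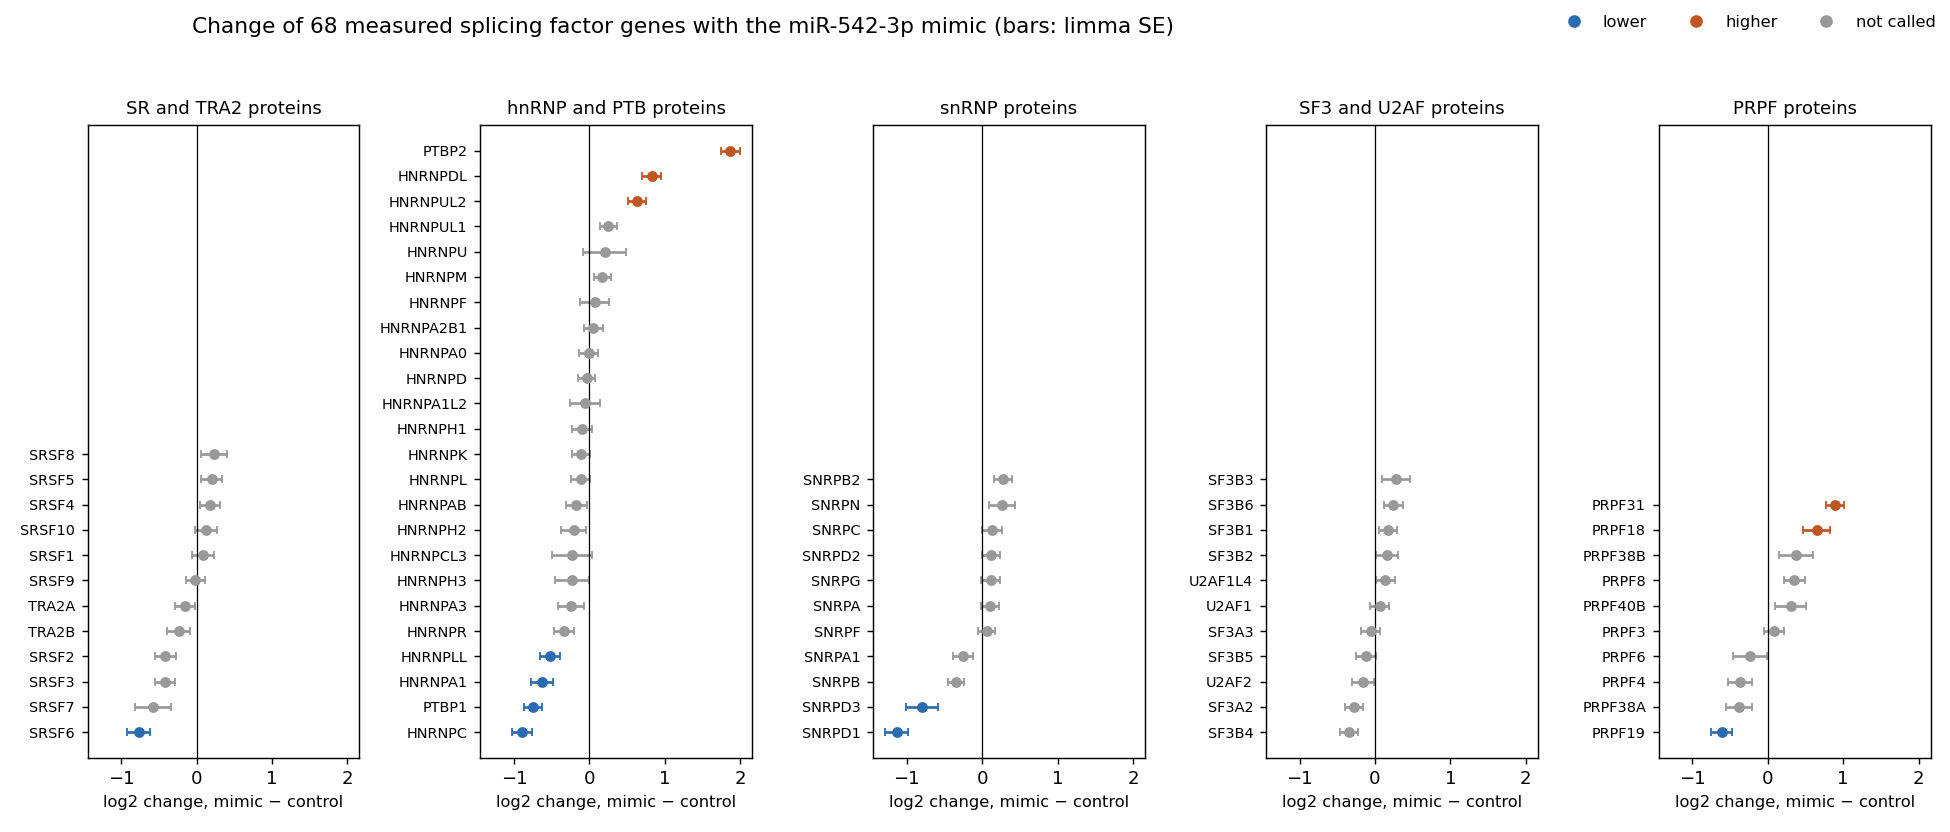
Log2 change (mimic minus control, x axis) of each of the 68 measured splicing factor genes, in 5 families, with limma's standard error as bars. Blue genes fell, orange genes rose and grey genes did not pass the test; PTBP2 lies apart at 1.87, and no SF3 or U2AF gene is coloured.

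The largest change was found in the PTB pair. PTBP1, the polypyrimidine tract binding protein of most dividing cells, represses many exons, including an exon of PTBP2 (nPTB, its neuronal paralog) whose skipping leads to decay of the PTBP2 transcript; in neuronal differentiation PTBP1 gives way to PTBP2. The RefSeq start regions of both genes (GRCh38.p14, 250 bases before to 50 after the annotated start) are shown because this pair moved in opposite directions. PTBP1 has a pair of entries there, at chr19:797202-797501 and chr19:797734-798033, and PTBP2 has 1 at chr1:96722388-96722687, all on the plus strand. Capitals mark matches, on either strand, to the CCAAT box (CCAAT), the GC box (GGGCGG), the TATA box (TATAAA) and the CHR element of cell cycle genes (TTTGAA).
PTBP1, upstream entry: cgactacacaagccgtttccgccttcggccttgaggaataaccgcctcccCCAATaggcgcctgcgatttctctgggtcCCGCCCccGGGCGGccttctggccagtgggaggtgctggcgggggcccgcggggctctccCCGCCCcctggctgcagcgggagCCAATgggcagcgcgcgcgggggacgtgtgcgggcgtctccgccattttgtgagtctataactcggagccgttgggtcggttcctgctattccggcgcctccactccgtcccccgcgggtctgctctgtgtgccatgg
PTBP1, downstream entry: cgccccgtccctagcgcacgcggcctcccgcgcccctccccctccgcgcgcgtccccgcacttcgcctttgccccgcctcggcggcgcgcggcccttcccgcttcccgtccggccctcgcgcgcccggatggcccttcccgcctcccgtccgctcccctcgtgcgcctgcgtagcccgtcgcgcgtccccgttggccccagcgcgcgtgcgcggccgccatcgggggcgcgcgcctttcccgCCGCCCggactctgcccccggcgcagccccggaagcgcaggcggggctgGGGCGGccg
PTBP2: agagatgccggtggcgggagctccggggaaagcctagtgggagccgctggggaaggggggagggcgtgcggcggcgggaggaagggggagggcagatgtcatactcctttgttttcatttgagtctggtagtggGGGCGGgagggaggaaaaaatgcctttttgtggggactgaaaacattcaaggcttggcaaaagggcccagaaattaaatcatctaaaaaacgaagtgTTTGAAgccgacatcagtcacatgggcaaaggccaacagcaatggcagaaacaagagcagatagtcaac
The upstream PTBP1 window held 2 CCAAT and 3 GC box matches at 69.3% GC, the downstream one held 2 GC box matches at 82.7% GC, and the PTBP2 window held 1 GC box and 1 CHR match at 54% GC. Over all 35116 RefSeq windows of this length, 34.6% held a CCAAT match, 45% a GC box, 11.5% a TATA box and 15.2% a CHR match. The shares were 41.7%, 56%, 7.14% and 10.7% over the 84 windows of the 61 measured members that had one. The matches describe letters in these windows; no binding was measured.

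PTBP2 (probe ILMN_1707240) read 8.15, 8.27 and 8.16 on the control arrays and 10.02, 9.96 and 10.21 on the mimic arrays. The lowest mimic array exceeded the highest control array by 1.69, the widest gap among the members. The mean rose from 8.19 ± 0.07 to 10.06 ± 0.13 (SD, n = 3 per group), a 3.65-fold rise (1.87 ± 0.13, SE; limma adjusted p = 0.000111). The second PTBP2 probe gave almost the same change, 1.85, from 7.40 to 9.25. PTBP1 (ILMN_1655154) read 12.63, 12.59 and 12.44 on the control arrays and 11.85, 11.85 and 11.71 with the mimic, so the groups did not overlap. It fell 1.68-fold (0.75 ± 0.12 on the log2 scale; limma adjusted p = 0.00373). Both calls held under every alternative setting and with any 1 array left out, in which case PTBP2 ranged from 1.79 to 1.92 and PTBP1 from -0.81 to -0.70. PTBP3, the third member of this gene family and not chosen by the rule above, changed by -0.29 (limma adjusted p = 0.165). RAVER1, a PTBP1-binding partner in exon repression, read 7.94, 8.15 and 8.14 on the control arrays and 6.60, 6.75 and 7.0 with the mimic, and fell by 1.29 ± 0.15 (SE; limma adjusted p = 0.000816). With no background correction its change was -0.77.

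The hnRNP and PTB family had 24 measured genes with a median change of -0.10. Of these, 4 fell and 3 rose (29.2% called, against 26.4% of all genes tested), leaving 17 without a call. HNRNPC, whose tetramer packages nascent RNA and keeps cryptic Alu exons out of mRNA, read 9.22, 9.08 and 8.96 on control arrays and 8.27, 8.25 and 8.05 on mimic arrays. The groups were apart, and the gene fell 1.86-fold (0.89 ± 0.13; limma adjusted p = 0.00241). Its dimmer probe changed by -0.23 and was not called (limma adjusted p = 0.451), and the mean of both probes fell by 0.56. HNRNPA1, an antagonist of SRSF1 in splice site choice, read 8.50, 8.80 and 8.92 against 8.07, 8.18 and 8.08, and fell by 0.63 ± 0.14 (limma adjusted p = 0.0151). Its second probe changed by -0.52 and was not called (0.166), and the call ended without control replicate 3 (0.0539) or mimic replicate 1 (0.0545). HNRNPA1 has many processed copies in the genome, and whether its probes read these was not tested. HNRNPLL, a regulator of CD45 splicing in lymphocytes, read 7.40, 7.09 and 7.33 against 6.70, 6.72 and 6.84 and fell by 0.52 ± 0.13 (limma adjusted p = 0.0231). The groups were apart by 0.25, but the call ended without control replicate 1 (0.0914), control replicate 3 (0.0732) or mimic replicate 1 (0.0812), and the change was -0.28 with no background correction.

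HNRNPDL, a paralog of the AU-rich element binding protein HNRNPD, read 9.21, 9.02 and 9.24 on control arrays and 9.87, 10.07 and 10.02 on mimic arrays. It rose 1.77-fold (0.83 ± 0.13; limma adjusted p = 0.00292), and no mimic array fell within the control range. A far dimmer HNRNPDL probe, detected on 2 control arrays and 1 mimic array, changed by -0.20, and the mean of both probes, 0.31, did not pass (limma adjusted p = 0.222). HNRNPD itself changed by -0.03, with control arrays from 13.31 to 13.38 and mimic arrays from 13.30 to 13.35. HNRNPUL2, an HNRNPU-like protein with a role at DNA breaks, read 8.80, 8.77 and 8.80 against 9.50, 9.30 and 9.45. It rose by 0.63 ± 0.12 (limma adjusted p = 0.00684), also with any 1 array left out. HNRNPUL1 (0.25) and HNRNPU (0.20) did not pass; the HNRNPUL1 groups were apart by 0.14 whereas those of HNRNPU overlapped.

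The other hnRNP genes lay between -0.34 and 0.17. HNRNPR (-0.34) had 3 probes that all moved down, by 0.29 to 0.46, and none was called. HNRNPK (-0.11) and HNRNPM (0.17) each had array groups that did not overlap, by margins of 0.01 and 0.08. A second HNRNPK probe changed by -0.49 (limma adjusted p = 0.0508). HNRNPA2B1, HNRNPA0, HNRNPF and HNRNPA1L2 were all within 0.07 of no change. HNRNPA3 (-0.25), HNRNPH3 (-0.23), HNRNPCL3 (-0.23), HNRNPH2 (-0.21), HNRNPAB (-0.18), HNRNPL (-0.11) and HNRNPH1 (-0.10) were all negative, with overlapping groups. HNRNPCL3 belongs to a set of near-identical HNRNPC-like copies, so its value cannot be assigned to it alone.

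**Figure D2:**
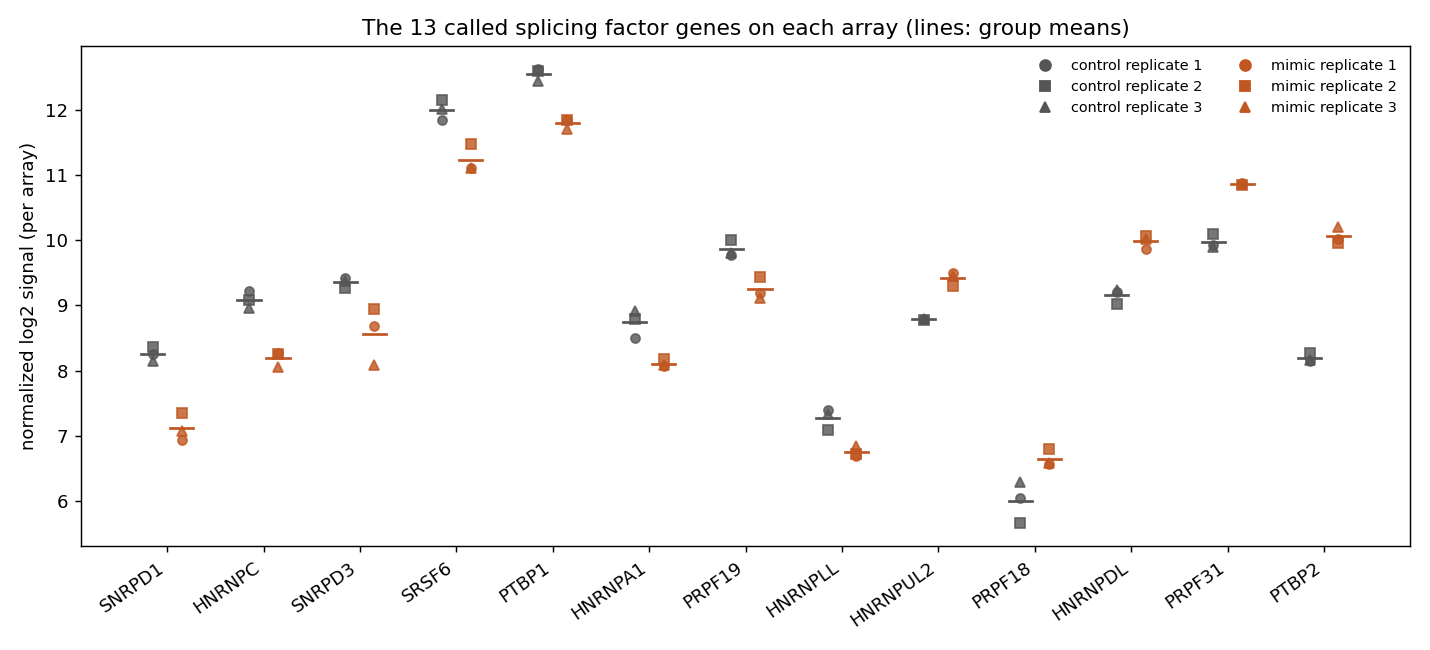
Normalized log2 signal (y axis) of the 13 called splicing factor genes on each of the 6 arrays, control in grey and mimic in orange, with a symbol for each replicate number and a line at each group mean. These 13 genes were chosen by the test on the same arrays. In each, the mimic arrays lie wholly above or below the control arrays, as in 45% of all genes tested. The widest gap is in PTBP2 (1.69) and the narrowest in HNRNPLL (0.25).

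In the SR and TRA2 family, 1 of 12 measured genes fell and none rose (limma; at an unadjusted p under 0.05, 4 were lower and none higher, where all genes had 19.9% lower and 20.1% higher), with a median of -0.09. SRSF6 (SRp55), an enhancer-binding SR protein, read 11.84, 12.15 and 12.01 on control arrays and 11.11, 11.47 and 11.11 with the mimic. It fell 1.70-fold (0.77 ± 0.15; limma adjusted p = 0.00854), a call that held with any 1 array left out. SRSF2 (SC35), which marks nuclear speckles, read 12.55, 12.75 and 12.55 against 12.12, 12.42 and 12.06. SRSF3, the smallest of the classical SR proteins, read 9.67, 9.54 and 9.33 against 9.03, 9.21 and 9.03. Neither group pair overlapped, but the changes of SRSF2 (-0.42, limma adjusted p = 0.0685) and SRSF3 (-0.42, limma adjusted p = 0.0579) did not pass. SRSF7, a paralog of SRSF3, changed by -0.57 (limma adjusted p = 0.122). Its mimic replicate 2, at 8.45, lay within the control range, and without it the change was -0.81 and passed (0.0253). SRSF2 (-0.52, limma adjusted p = 0.0322) also passed without mimic replicate 2.

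The other SR genes kept to a narrow band. TRA2A (-0.16) and TRA2B (-0.24), the partners of SR proteins at purine-rich enhancers, did not pass. SRSF1, the founding SR protein (SF2/ASF), read 11.66, 11.91 and 11.56 against 11.70, 11.95 and 11.73, and the groups overlapped (0.08). SRSF9 (-0.02) was as close to its control level, and SRSF10 (0.13), SRSF4 (0.18), SRSF5 (0.20) and SRSF8 (0.23) were positive without passing. Both probes of SRSF5 agreed (0.20 and 0.25).

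Of 11 measured snRNP genes 2 fell and none rose, and the median was 0.11. That is 18.2% called by limma, against 26.4% of all genes tested. At an unadjusted limma p under 0.05, 3 were lower, 27.3% against 19.9% of all genes, and none higher. The called falls were in the Sm proteins, which form the ring on each spliceosomal snRNA. SNRPD1 (SmD1) read 8.26, 8.36 and 8.15 on control arrays and 6.94, 7.35 and 7.07 on mimic arrays. It fell 2.20-fold (1.14 ± 0.15; limma adjusted p = 0.00135), a call that held in all settings, although the size was -0.73 with no background correction. SNRPD3 (SmD3) read 9.42, 9.27 and 9.38 against 8.68, 8.94 and 8.08. The mimic arrays were spread widely (SD 0.44) but stayed below the controls, and the mean fell by 0.79 ± 0.21 (limma adjusted p = 0.0297). Removing a single control array, whichever it was, or mimic replicate 1 ended that call (limma adjusted p up to 0.09), as did testing with no detection filter. SNRPB (SmB) read 12.65, 12.67 and 12.65 against 12.33, 12.28 and 12.33, a small and even difference of -0.35 that did not pass (limma adjusted p = 0.0557). Its second probe gave -0.27.

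The other ring members did not follow these values. SNRPD2 (0.12), which pairs with SmD1 in the ring, read 13.98, 14.16 and 14.07 against 14.26, 14.14 and 14.16. SNRPF (0.06) and SNRPG (0.11) overlapped between groups as well, and SNRPE was not detected. SNRPN (0.27), which codes for an SmB paralog and shares its locus and transcript with SNURF, had 3 probes that were all positive (0.18 to 0.44) and not called. Among proteins of single snRNPs, SNRPA (0.11) and SNRPC (0.13) of U1 did not pass. Of the U2 pair, SNRPA1 changed by -0.26 and SNRPB2 by 0.28, each with groups that did not overlap and neither called. A dimmer SNRPB2 probe was called higher (0.42, limma adjusted p = 0.0396, with 23.6% of detected probes called when each probe was its own row).

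No SF3 or U2AF gene of 11 measured was called by limma, against 26.4% of all genes tested. At an unadjusted limma p under 0.05, 2 were lower and none higher, 18.2% against 19.9% of all genes lower. The SF3 and U2AF proteins hold U2 snRNP at the branch point and read the polypyrimidine tract and the 3′ splice site. SF3B4 read 11.93, 11.89 and 11.87 against 11.47, 11.65 and 11.55, and SF3A2 read 9.90, 9.94 and 9.93 against 9.60, 9.76 and 9.57. In both the groups were apart, with changes of -0.34 (limma adjusted p = 0.068) and -0.28 (0.124). SF3B1, the subunit mutated in some blood cancers, changed by 0.17 and SF3B6 by 0.24, with groups apart by 0.01 and 0.07. SF3B3 was the highest of the family at 0.28, with overlapping groups. SF3B2 (0.16), SF3A3 (-0.05), SF3B5 (-0.12), U2AF1 (0.06) and U2AF1L4 (0.14) had overlapping groups. U2AF2, the large U2AF subunit, changed by -0.16 at its bright probe, while a dimmer probe was called lower (-0.45, limma adjusted p = 0.0294).

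The PRPF family, with 10 genes measured, had 2 that rose, 1 that fell and a median change of 0.19. That is 30% called, against 26.4% of all genes tested. PRPF31, a U4/U6 snRNP protein required for tri-snRNP assembly and a retinitis pigmentosa gene, read 9.92, 10.09 and 9.90 against 10.88, 10.85 and 10.86. It rose 1.86-fold (0.89 ± 0.12; limma adjusted p = 0.00151), and the call held with any 1 array left out (0.85 to 0.95). PRPF18, a factor of the second splicing step, read 6.05, 5.66 and 6.29 against 6.57, 6.80 and 6.58 and rose by 0.65 ± 0.18 (limma adjusted p = 0.0325). Control replicate 3 was the only array whose removal left this call in place (limma adjusted p up to 0.0799 otherwise). It also ended with no detection filter or with array medians set equal, and the change was 0.27 with no background correction. PRPF19, the ubiquitin ligase at the heart of the PRP19 complex, read 9.77, 10.01 and 9.81 against 9.19, 9.44 and 9.12. It fell by 0.61 ± 0.14 (limma adjusted p = 0.0153), but not without mimic replicate 1 (0.0579) or mimic replicate 3 (0.0518). PRPF8, the core scaffold of the catalytic centre, changed by 0.35 without passing (limma adjusted p = 0.107), with control arrays from 11.01 to 11.31 and mimic arrays from 11.42 to 11.70. PRPF38A (-0.38), PRPF4 (-0.37) and PRPF6 (-0.24) were negative, and PRPF3 (0.08), PRPF40B (0.30) and PRPF38B (0.38) were positive; none of these 6 passed. PRPF4 was called lower without mimic replicate 2 (-0.52, limma adjusted p = 0.0287). PRPF40B was detected on 1 control array and 2 mimic arrays.

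Different probes of a gene can read different transcript forms, and 26 members had more than 1 detected probe. All probes had the same sign in 20 of them, and no member had probes called in opposite directions. Of the 36 probes that did not stand for their gene, 1 (U2AF2) was lower and 2 (PTBP2 and SNRPB2) were higher. In the same fit, with each probe as its own row, 23.6% of all detected probes were called. The widest spreads between probes were in HNRNPDL (-0.20 to 0.83) and HNRNPC (-0.89 to -0.23). PTBP2 probes differed by 0.02. The position of the probes in the transcripts was not used here.

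**Figure D3:**
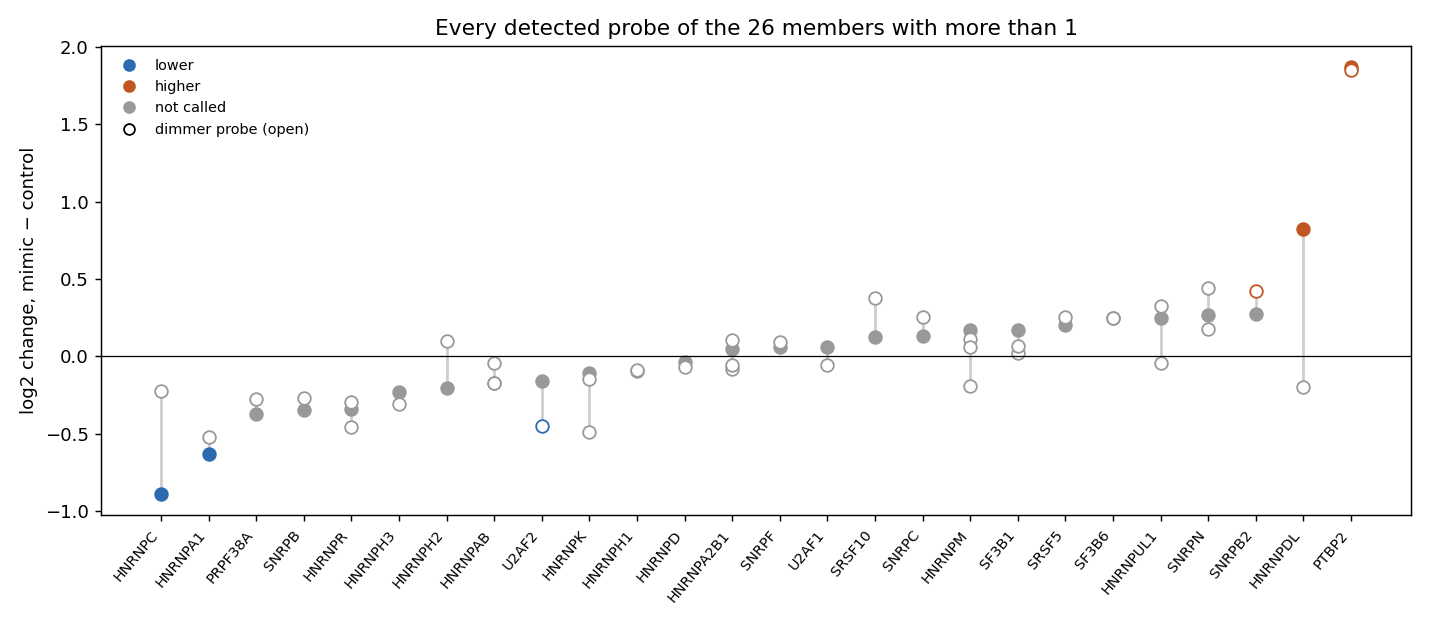
Log2 change (mimic minus control, y axis) of each detected probe of the 26 members with more than 1. Filled points are the brightest probe, which stands for the gene, and open points are dimmer probes; blue and orange mark called probes. Both PTBP2 probes lie at 1.85 and 1.87, and the HNRNPDL probes lie on either side of 0.

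The rest of the splicing machinery was followed through 9 lists from general knowledge, 155 genes measured in all, of which 15 fell and 13 rose (18.1%, against 26.4% of all genes tested), with a median of 0.05. Leaving out any 1 array ended some of these calls. Of the 15 falls 5 held without control replicate 1, 6 without control replicate 2 and 8 without control replicate 3. The number was 7 without mimic replicate 1, 11 without mimic replicate 2 and 6 without mimic replicate 3. Of the 13 rises between 6 and 10 held, in fits that called 17.2% to 26.3% of all genes. By list, with all 6 arrays, the called share ran from 0% (kinases and phosphatases of SR proteins) to 33.3% (LSm proteins), beside the 26.4% of all genes. The largest change was in the minor spliceosome, where 1 of 9 genes fell. ZMAT5, a protein of the U11/U12 snRNP that recognises the rare U12-type introns, read 9.39, 9.54 and 9.50 on control arrays and 6.88, 6.90 and 6.80 with the mimic. It fell by 2.62 ± 0.12 (SE; limma adjusted p = 5.81e-05), and its second probe fell by 2.39. Of 14 spliceosomal helicases 2 fell: DDX23, which activates the tri-snRNP, by 1.02 ± 0.15 (limma adjusted p = 0.00268), and AQR by 0.60. Of 12 LSm proteins, relatives of the Sm ring that include the U6 snRNA ring, 2 rose and 2 fell. LSM3 read 11.36, 11.77 and 11.36 against 12.73, 12.71 and 12.92 and rose by 1.29 ± 0.15 (limma adjusted p = 0.000994), with its second probe at 1.16; LSM7 rose by 0.59, a call that ended without control replicate 1, control replicate 3 or mimic replicate 1 (limma adjusted p up to 0.0813). LSM14A, an mRNP protein of the cytoplasm and no ring subunit, changed by -0.44 and kept its call only when mimic replicate 2 was the array removed (limma adjusted p up to 0.11 otherwise).

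Of 20 PRP19 complex and catalytic-core genes, SYF2 rose by 0.61 and CDC5L (0.67) and BUD13 (0.56) fell by the log2 sizes given. The last 2 each lost their call when some single arrays were left out (highest limma adjusted p 0.0772 for CDC5L and 0.0839 for BUD13). Skipping background correction gave -0.37 for BUD13, the deposited values gave -0.36, and its call ended with no detection filter (limma adjusted p = 0.0583). Of 23 SR-related proteins 3 rose and 2 fell. PNN, a desmosome and speckle protein, rose by 0.58 and RNPS1 fell by 0.56, while BCLAF1 fell by 0.84 at its brightest probe and lay at 0.06 and 0.12 at the others. The PNN call ended without control replicate 3 (limma adjusted p = 0.0506), the RNPS1 call with the mean of its probes, and the BCLAF1 call with that mean or when any array other than mimic replicate 2 was removed (limma adjusted p up to 0.0614). Of 42 other splicing regulators 4 fell, RAVER1 foremost, and 4 rose, with KHDRBS3 (a STAR family protein) up by 0.72 and by 0.94 at its second probe. MBNL1, a regulator lost in myotonic dystrophy, fell by 0.71 with its second probe at -0.72; the call ended without control replicate 1 (limma adjusted p = 0.071). None of 9 kinases and phosphatases of SR proteins was called (limma; 2 were higher and none lower at an unadjusted p under 0.05, 22.2% against 20.1% of all genes higher).

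In snRNP assembly 2 of 17 genes rose, STRAP by 0.71 and PRMT5, which methylates Sm proteins, by 0.53, and USP39 fell by 0.42. Removing any array but control replicate 2 ended the PRMT5 call (limma adjusted p up to 0.131), and removing any array at all ended that of USP39 (up to 0.133). In the exon junction and nonsense-mediated decay list SMG1, a kinase that phosphorylates UPF1, rose by 0.75 and UPF1 fell by 0.41, with 8 of 10 genes not called. The UPF1 call did not survive the removal of any single array (limma adjusted p up to 0.13), and SMG1 without mimic replicate 1 (0.0576).

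**Figure D4:**
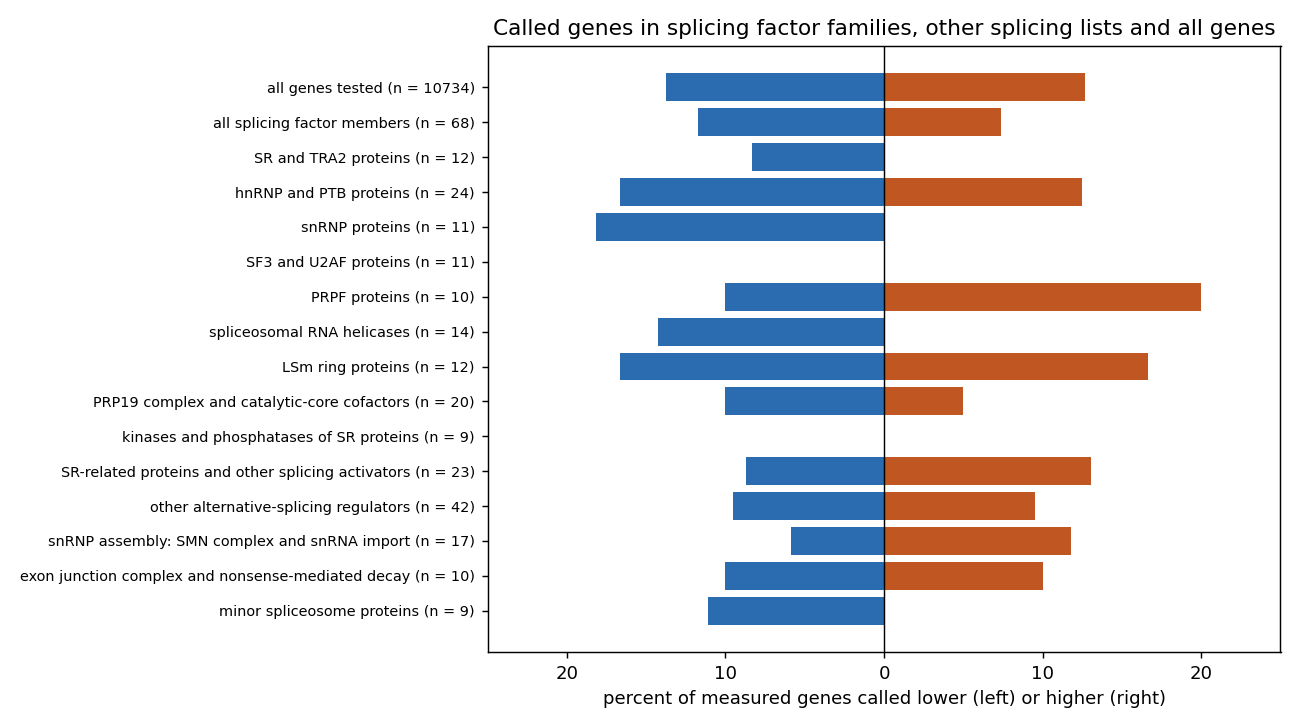
Percent of measured genes called lower (blue, to the left) or higher (orange, to the right) with the mimic, for all genes tested, the 68 splicing factor genes, their 5 families and 9 further splicing lists, with the number measured beside each name. All genes tested lie at 13.7% lower and 12.7% higher; the SF3 and U2AF family and the SR kinase list have no called gene.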

How the data were processed

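Total RNA of U2OS cells was labelled as biotinylated cRNA for Illumina arrays, per the labels' protocols. For 47323 probes on 6 arrays the authors deposited a non-normalized signal intensity with its detection p-value, as the table headers name them; they also deposited a table of log2 values, whose 6 columns have medians of 7.138 to 7.139 (scale and centring read from the values; software not given in the sources used here). From the intensities, limma 3.58.1 under R 4.3.3 removed background (nec, offset 16, background inferred from detection p-values), then quantile normalization and a log2 transform followed. Probes with detection p under 0.05 on at least 3 of 6 arrays were kept, with the brightest probe per gene, giving 10734 genes and 4041 further probes that name no single gene. Mimic and control were tested by lmFit and eBayes without covariates, with Benjamini-Hochberg adjustment over all rows. Genes were named from GEO's array annotation (30113 probes with 1 gene, 8 with several), and symbols and promoter sequences from RefSeq GRCh38.p14. The number of arrays limits the precision. The fit was also run on simulated data with independent noise and planted changes larger than those of most called members. The outcome is not given here, and smaller changes were not simulated.

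Members and lists were chosen with earlier results of these data known. The text names every called member, in each family the extremes, the brightest and the uncalled members whose groups were apart, and up to 3 called genes of each other list. Uncalled members beyond these, and PTBP3, are given to account for the families and were chosen after their values were seen. Alternatives were other background steps, normalizations, filters, probe rules, variance models, array weights, the deposited log2 values, a stricter threshold, the replicate number as a block, and each array left out with the normalized rows kept.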

Additional observations from a re-analysis of the deposited data

How the results depend on the processing

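Of the 13 called members, HNRNPC, HNRNPUL2, PRPF31, PTBP1, PTBP2, SNRPD1 and SRSF6 kept their direction and call in all 18 alternatives, and the 6 others kept their direction. The count of members that fell, 8, became 15 with no background correction, 15 with eBayes with trend and robust, 15 with array weights, 16 with the deposited log2 values and 4 at an adjusted p under 0.01; the cause was not tested. The falls also numbered 12 with a background offset of 50, 12 with detection on all 6 arrays and 11 with cyclic loess normalization. Those fits called 30.4%, 32.3% and 26.3% of all genes. The count that rose, 5, became 8 with eBayes with trend and robust. It was 7 with no background correction, 7 with the deposited log2 values and 4 to 5 in the other alternatives. The share of all genes called moved too: with no background correction it was 32.6% against 32.4% of members, with the deposited values 32.5% against 33.8%, with eBayes with trend and robust 32.4% against 33.8%, and with array weights 35.8% against 29.4%. SRSF2, SRSF3, SRSF7, SNRPB, SF3B4, HNRNPR and PRPF4 were called lower in all 4 of these settings. With no detection filter 14.7% of members and 10.8% of all genes were called. That setting tested 75 members against 68, but 20046 genes against 10734. Leaving out 1 array at a time gave 4 to 11 falls (4 without mimic replicate 1, 5 without control replicate 3, 11 without mimic replicate 2, with 17.5%, 18.4% and 26.3% of all genes called) and 4 to 5 rises, and moved the median change between -0.057 and 0.021, against -0.027. It stayed between -0.037 and -0.019 under the other alternatives. Deviations from the group means correlated weakly between same-numbered arrays, at 0.0243, 0.0811 and 0.103. Between control and mimic arrays of unlike number the correlations ran from -0.129 to 0.0464. With the replicate number as a block 9 members fell and 4 rose, PRPF18 losing and SRSF7 gaining a call, and 2657 genes were called against 2833. In the other splicing lists 10 of 15 falls and 11 of 13 rises kept their call in that fit. BUD13, LSM14A, UPF1 and USP39 were among those that lost it. Dim signals limit HNRNPLL, PRPF18 and SNRPD1, whose sizes depend on the background step.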

Other observations

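Replicate 2 read high in both groups over the splicing factor genes. Control replicate 2 was the highest control array for 44 of 68 members (64.7%) and mimic replicate 2 the highest mimic array for 45 (66.2%), against 38% and 38.5% of all genes tested. Both held for 29 members (42.6%), against 17.1% of all genes. Gene by gene, the deviations of control replicate 2 and mimic replicate 2 were uncorrelated over the members (r = -0.00814). The median deviation from the group mean was 0.08 for control replicate 2 and 0.10 for mimic replicate 2, and between -0.055 and -0.025 for the other 4 arrays. Without mimic replicate 2 the members that fell numbered 11, with PRPF4, SRSF2 and SRSF7 added and PRPF18 no longer called higher; that fit called 22.1% of members and 26.3% of all genes.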
